A study of Homo sapiens with 12 samples.

Results

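The genes of 7 granule proteins, MPO, ELANE, AZU1, PRTN3, CTSG, RNASE2 and RNASE3, were examined for open chromatin in KO-52 cells. KO-52 is an acute myeloid leukaemia (AML) cell line with biallelic CEBPA mutations, so every group carried these mutations. The cells had been transduced with p42, the full-length form of CEBPA, with p30, its N-terminally truncated form, or with an empty vector (EV). Cells were incubated with DMSO or for 8 h with tunicamycin (Tm) at 2 µg/mL, an inhibitor of N-linked glycosylation that causes endoplasmic reticulum stress, and ATAC-seq, in which a transposase cuts accessible DNA, was done on 2 replicates of each of the 6 groups. The deposited peak lists, 1 per group, pool both replicates, so that no value below has a replicate error and no test between groups was made.

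Peaks of the 6 lists were merged where they overlapped or adjoined into 355394 common regions of the hg38 build. The members were the common regions that touched the GENCODE release 44 body of a gene or the 25 kb on either side of it, which gave 59 regions in 5 windows, as AZU1, PRTN3 and ELANE lie next to each other and share 1. The RNASE3 window (chr14:20866385-20917348) held 9 regions, the RNASE2 window (chr14:20930487-20981436) 11, the CTSG window (chr14:24548518-24601250) 5, the MPO window (chr17:58244855-58305935) 13 and the window of AZU1, PRTN3 and ELANE (chr19:800097-881247) 21. The last 2 windows also contain other coding genes, LPO and TSPOAP1 beside MPO, and PTBP1, PLPPR3, CFD and MED16 beside the chromosome 19 cluster. Distances are given from the start site of the principal transcript of the nearest member, in the direction of transcription.

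Primary (azurophil) granules are made at the promyelocyte stage of neutrophil development, when the genes for their contents are transcribed. MPO is a haem peroxidase that makes hypochlorous acid, ELANE, PRTN3 and CTSG are serine proteases (neutrophil elastase, proteinase 3 and cathepsin G), and AZU1 encodes azurocidin, an antimicrobial relative of these proteases without catalytic activity. RNASE2 and RNASE3 encode the eosinophil-derived neurotoxin and the eosinophil cationic protein, a pair of ribonucleases best known from eosinophil granules. CEBPA is a basic leucine zipper factor needed for granulocytic differentiation, and C/EBP, PU.1, RUNX and MYB factors are known regulators of several of these genes.

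The promoter sequences are shown because C/EBP motifs were present in 4 of the 5 of these promoters for which the RefSeq promoter table had an entry. MPO and ELANE were not among the entries matched by symbol. Each sequence is from RefSeq (GRCh38.p14), runs 5′ to 3′ on the strand of the gene, and covers 250 bases before and 50 after the start. Capitals mark exact matches, on either strand, to TTGNNCAA (the C/EBP core), AGGAAGT (PU.1) or the MYB core, which was searched as CAACNG or TAACNG. The promoters lie at chr19:827587-827886 (AZU1, plus strand), chr19:840749-841048 (PRTN3, plus), chr14:24576201-24576500 (CTSG, minus), chr14:20891135-20891434 (RNASE3, plus) and chr14:20955237-20955536 (RNASE2, plus).
AZU1 promoter: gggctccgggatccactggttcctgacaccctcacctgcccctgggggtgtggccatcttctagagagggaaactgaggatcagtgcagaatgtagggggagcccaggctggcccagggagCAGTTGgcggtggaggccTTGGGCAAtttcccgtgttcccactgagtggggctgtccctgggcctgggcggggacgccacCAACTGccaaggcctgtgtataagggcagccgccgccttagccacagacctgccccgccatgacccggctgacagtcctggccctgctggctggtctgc
PRTN3 promoter: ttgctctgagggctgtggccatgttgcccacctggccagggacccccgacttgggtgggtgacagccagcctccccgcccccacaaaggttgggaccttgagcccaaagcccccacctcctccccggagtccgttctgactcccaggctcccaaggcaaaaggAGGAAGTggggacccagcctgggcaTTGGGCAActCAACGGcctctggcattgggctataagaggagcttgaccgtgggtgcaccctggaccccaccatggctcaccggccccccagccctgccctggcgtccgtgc
CTSG promoter: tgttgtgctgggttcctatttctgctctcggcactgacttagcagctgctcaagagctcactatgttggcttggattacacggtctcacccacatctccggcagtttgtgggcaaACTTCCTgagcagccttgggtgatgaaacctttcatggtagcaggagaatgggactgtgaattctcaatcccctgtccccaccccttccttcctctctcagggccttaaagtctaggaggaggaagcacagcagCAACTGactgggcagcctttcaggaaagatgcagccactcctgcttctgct
RNASE3 promoter: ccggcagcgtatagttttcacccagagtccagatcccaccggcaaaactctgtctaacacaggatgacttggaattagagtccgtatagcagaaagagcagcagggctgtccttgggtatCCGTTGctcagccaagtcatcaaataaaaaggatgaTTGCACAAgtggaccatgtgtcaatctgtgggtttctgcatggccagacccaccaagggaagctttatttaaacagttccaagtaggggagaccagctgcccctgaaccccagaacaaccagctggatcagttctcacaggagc
RNASE2 promoter: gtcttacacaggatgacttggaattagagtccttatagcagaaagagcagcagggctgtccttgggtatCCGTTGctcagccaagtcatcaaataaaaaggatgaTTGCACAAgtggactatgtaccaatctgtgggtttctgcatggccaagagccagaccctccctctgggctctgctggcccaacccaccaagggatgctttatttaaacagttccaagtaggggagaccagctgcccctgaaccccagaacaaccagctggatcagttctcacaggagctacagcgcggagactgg

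The AZU1 promoter had TTGGGCAA at base 140 and the PRTN3 promoter had the same 8 letters at base 189. The RNASE3 and RNASE2 promoters both had TTGCACAA, at bases 157 and 106. The C/EBP core was found in 5.55% of all 35116 promoters of the table. The 4 promoters with a match are not 4 independent cases beside this share, as those of RNASE3 and RNASE2 are copies of each other. PU.1 letters were present in the PRTN3 and CTSG promoters, against 8.24% of all promoters, and MYB letters in all 5, against 46.2%. None of the 5 held the ATF4 composite TGATGCAA (0.866% of all promoters), the composite TGTTGCAA (0.669%), the AP-1 motif TGANTCA (7.71%) or the RUNX motif TGTGGTT (4.27%). The RNASE3 and RNASE2 promoters were near-identical copies, with 243 identical bases over 283 aligned columns (85.9%) and a shared run of 86 bases, so reads from this pair may have been placed in either gene and their values are uncertain to that extent.

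Peaks in these lists carry a height at the summit, given here as the number of tags and as tags per 10000000 estimated tags of the list (scaled tags), the latter with an exact 95% Poisson interval. The interval covers counting error only. They also carry a rank, given as the percentile of the peak's −log10 q within its own list. The estimated depth was 22250000 to 29980000 tags, highest for p42 in DMSO, and the lists held 187704 (EV, DMSO) to 254239 (p42, DMSO) peaks. A region without a peak in a list was not detectable there at this depth, which does not show that it was closed. The check of cell type was coarse. Promoters of all 5 myeloid markers (SPI1, CD33, CSF3R, CSF1R, ITGAM) had a peak in every list, but both T-cell markers (CD3E, CD8A) and EPCAM of the 2 epithelial markers were also marked in every list.

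**Figure D1:**
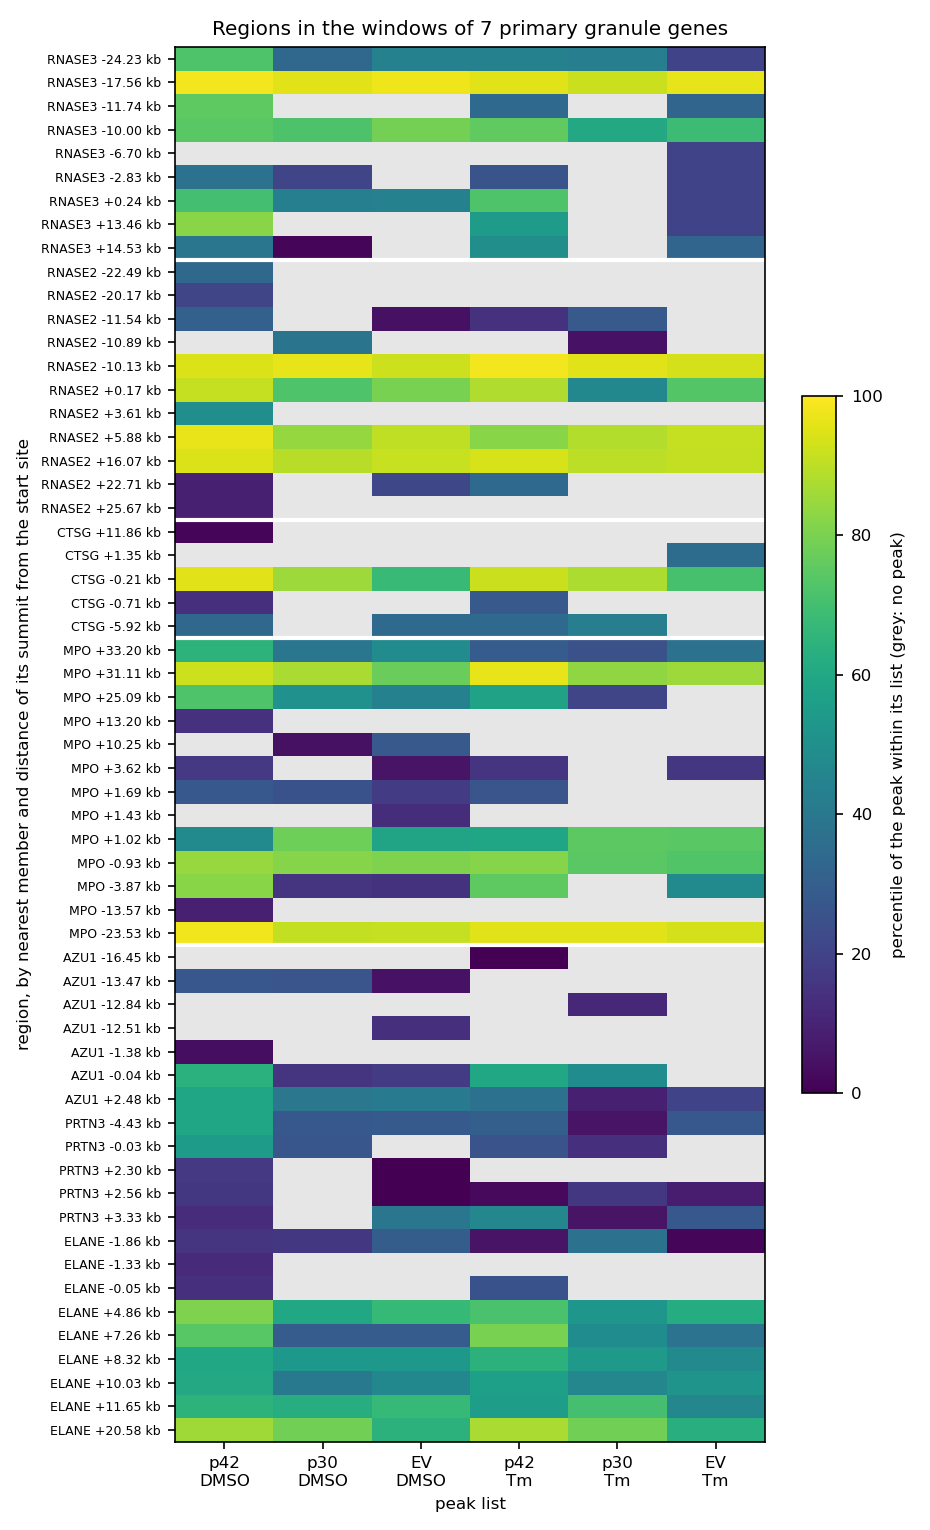
Percentile of the peak in each list (columns) for the 59 regions (rows, by nearest member and distance of the summit from its start site in kb), with grey for no peak and white lines between windows. The p42 columns hold 51 (DMSO) and 41 (Tm) peaks and the p30 columns 33 and 31.

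At the MPO start site the nearest summit lay 933 bp upstream (chr17:58281687-58282091), and it was the highest of the 7 nearest summits in each of the 6 lists. It reached 15.3 scaled tags in p42 DMSO (interval 11.2 to 20.5), 13.2 in p30 DMSO and 15.3 in EV DMSO, and 14.9 in p42 Tm, 12.1 in p30 Tm and 10.7 in EV Tm. All 6 intervals overlapped, and the peak stood between the 72.8 and 84.5 percentile of its list. The p42 over p30 ratio of scaled tags (the ratio given throughout) was 1.16 (interval 0.733 to 1.86) in DMSO and 1.23 (0.736 to 2.08) in Tm, so the MPO start site did not separate the lines beyond counting error. MPO has 7 annotated start sites, and 3 regions lay beside those inside the gene. The region 1.02 kb downstream, in an exon, had 23 to 32 tags in the 6 lists. The region 1.69 kb downstream had 19 tags in p42 DMSO, 15 in p30 DMSO, 15 in EV DMSO and 16 in p42 Tm and no peak in p30 Tm or EV Tm, and the region 1.43 kb downstream had a peak in EV DMSO only (14 tags).

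Among the serine protease genes, the CTSG summit 210 bp upstream (chr14:24576094-24576712) was the strongest. It had 35 tags in p42 DMSO, 20 in p30 DMSO and 13 in EV DMSO, which is 11.7 (interval 8.13 to 16.2), 7.54 (4.6 to 11.6) and 5.84 (3.11 to 9.99) scaled tags. In Tm it had 29, 22 and 15 tags, or 11.4, 9.53 and 5.97 scaled tags. The order p42, p30, EV was the same in both treatments. The p42 over p30 ratio of 1.55 in DMSO had an interval of 0.87 to 2.83, whereas the p42 over EV ratio of 2.0 in DMSO (interval 1.03 to 4.12) lay above 1. In Tm the p42 over EV ratio was 1.91, with an interval of 0.991 to 3.83 that contained 1. A second CTSG region, 709 bp upstream (chr14:24576916-24576996), was called with p42 alone, with 8 tags in DMSO and 9 in Tm.

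AZU1 and PRTN3 had lower summits, 40 and 28 bp upstream of their start sites. The AZU1 region (chr19:827698-827984) had 15 tags in p42 DMSO, 6 in p30 DMSO and 7 in EV DMSO, then 12 in p42 Tm and 9 in p30 Tm, with no peak in EV Tm. Its percentile was 63.8 in p42 DMSO against 15.0 in p30 DMSO, and 60.1 against 48.6 in Tm. The PRTN3 region (chr19:840849-841023) had 15 tags in p42 DMSO, 9 in p30 DMSO, 9 in p42 Tm and 7 in p30 Tm, and no peak in either EV list. The p42 over p30 ratios in DMSO were 2.21 for AZU1 (interval 0.811 to 6.96) and 1.47 for PRTN3 (0.605 to 3.82), so that counts this low could not separate the lines. These are the 2 promoters that share TTGGGCAA, but a link between these letters and the ratios was not tested. The start-site regions of the other members, among them RNASE2 and CTSG, had no C/EBP core within 201 bp centred on the summit. Around a second annotated start site inside PRTN3 lay 3 regions, 2.3, 2.56 and 3.33 kb downstream, with 5 to 11 tags where present. All 3 had a peak in p42 DMSO and EV DMSO and none had one in p30 DMSO, whereas the last 2 of them had a peak in all 3 Tm lists.

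ELANE, the gene of neutrophil elastase, had the weakest start site of the 7. A 68-bp region 53 bp upstream (chr19:852210-852277) had a peak of 8 tags in p42 DMSO and 8 in p42 Tm, at the 13.4 and 25.2 percentiles, and none in the p30 and EV lists. A region 1.86 kb upstream, next to a second annotated start site (chr19:850338-850641), was present in all 6 lists with 4 to 8 tags and did not follow p42. Its percentile was 15.3 in p42 DMSO and 16.1 in p30 DMSO, and 5.5 and 37.7 in Tm. Between these, a region 1.33 kb upstream had a peak of 7 tags in p42 DMSO only.

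The RNASE pair showed summits just inside the genes, 172 bp downstream of the RNASE2 start site and 237 bp downstream of that of RNASE3, each in the annotated intron. The RNASE2 region (chr14:20955102-20955912) had 36 tags in p42 DMSO, 16 in p30 DMSO and 20 in EV DMSO, and 30, 9 and 16 in Tm. In scaled tags this was 12, 6.03 and 8.99 in DMSO and 11.8, 3.9 and 6.37 in Tm. The p42 over p30 ratio was 1.99 (interval 1.08 to 3.84) in DMSO and 3.02 (1.4 to 7.24) in Tm, both intervals above 1. RNASE2 was the only member whose start-site region had this. Its p42 over EV ratios were 1.34 (interval 0.753 to 2.44) in DMSO and 1.85 (0.978 to 3.64) in Tm. Both of these intervals contained 1, so p42 was not separated from EV beyond counting error. The RNASE3 region (chr14:20891228-20891802) was lower, with 16 tags in p42 DMSO, 8 in p30 DMSO and 8 in EV DMSO, and in Tm 15 in p42, 6 in EV and no peak in p30. Its p42 over p30 ratio in DMSO was 1.77 (interval 0.715 to 4.78).

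In p42 DMSO the order of the start-site summits was MPO (15.3 scaled tags), RNASE2 (12), CTSG (11.7), RNASE3 (5.34), AZU1 and PRTN3 (both 5.0) and ELANE (2.67). Neighbours in this order overlapped in their intervals throughout. The interval of MPO began at 11.2 and lay above those of RNASE3 (up to 8.67), AZU1 and PRTN3 (up to 8.25) and ELANE (up to 5.26). These heights are the pileup at a single position and not sums over regions of different length.

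The widest percentile gap between p42 and p30 in DMSO was away from a start site. A region 3.87 kb upstream of MPO (chr17:58284672-58285105), intergenic and without a match to any of the 7 motifs, had 38 tags in p42 DMSO against 12 in p30 DMSO and 12 in EV DMSO. In Tm it had 29 tags in p42 and 15 in EV and no peak in p30. The percentiles were 82.1, 15.5 and 14.7 in DMSO, so that p42 stood 66.5 percentile points above p30, and 75.2 and 47.4 in p42 Tm and EV Tm. The ratio of scaled tags, p42 over p30 in DMSO, was 2.8 (interval 1.43 to 5.89) and that of p42 over EV was 2.35 (1.2 to 4.94). The region was picked for its wide gap in these same lists, and the intervals do not allow for that choice. The opposite difference in the same window lay inside MPO itself. A region 1.02 kb downstream of the start site (chr17:58279671-58280012), in an exon, had 24 tags in p42 DMSO and 32 in p30 DMSO, at the 47.6 and 78.1 percentiles, a difference of -30.5 points. In Tm the percentiles were 59.1 and 74.7. The ratios of 0.664 (interval 0.374 to 1.16) and 0.778 (0.431 to 1.39) did not exclude 1.

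In the RNASE3 window the region 24.2 kb upstream had the widest gap, with 14 tags in p42 DMSO and 7 in p30 DMSO (72.3 and 33.4 percentiles), but 8 tags in both p42 Tm and p30 Tm, with 6 in EV Tm. The narrowest was 10.0 kb upstream, where p42 and p30 DMSO had 15 and 14 tags. The region with the highest percentile of that window, 17.56 kb upstream in an exon of the gene ENSG00000259130, varied between 27 and 35 tags and between the 92.1 and 98.2 percentiles over all lists, with a p42 over p30 ratio of 0.999 (interval 0.598 to 1.68) in DMSO. The region with the highest percentile in the RNASE2 window, 10.13 kb upstream, was as even, at the 92.4 to 98.4 percentiles. The intervals of the 6 lists overlapped at both of these regions. In the chromosome 19 window the highest percentile was at an intron of MED16, 20.58 kb downstream of ELANE (63.0 to 87.5), and in the MPO window at the promoter of TSPOAP1, 23.53 kb upstream of MPO (90.9 to 97.9), neither being a member gene.

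**Figure D2:**
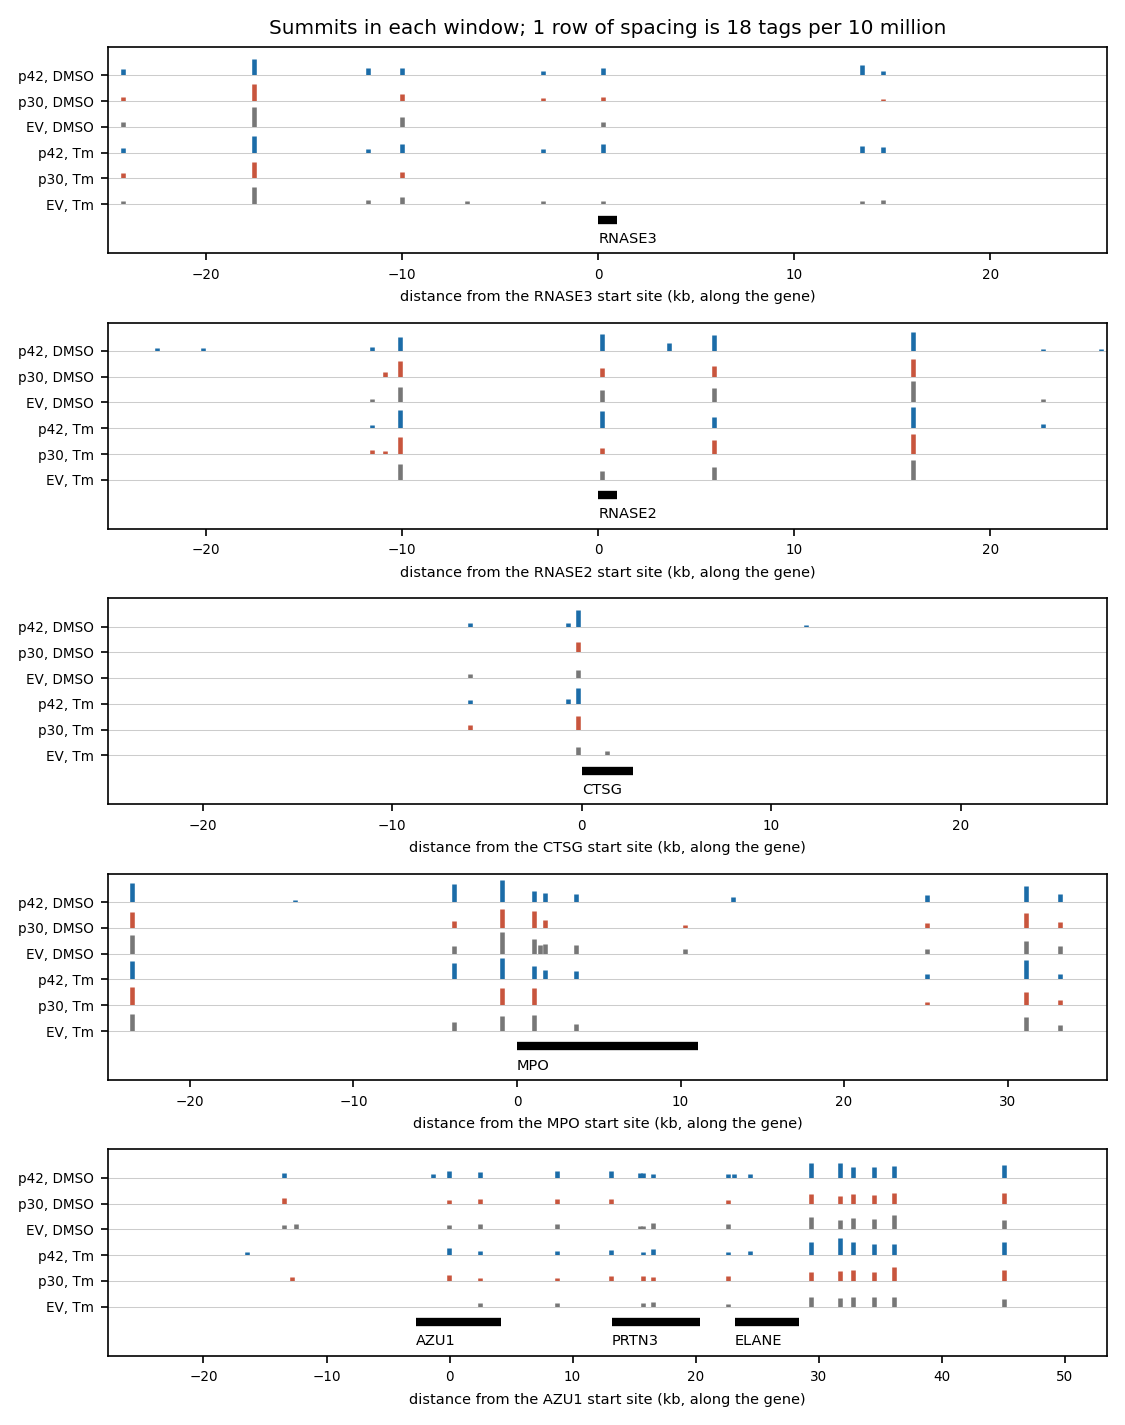
Summits in the 5 windows by distance from the named start site in kb (horizontal axis), with 1 row per list, bar height in tags per 10000000 (the spacing of rows is 18) and black bars for the bodies of the member genes. The bar 3.87 kb upstream of MPO is tall in both p42 rows (12.7 and 11.4), low in p30 DMSO (4.52) and absent in p30 Tm.

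Of the 55 members with a peak in any p42 or p30 list, 6 (10.9%) were marked with p42 in DMSO and in Tm and with p30 in neither, against 6.97% of all regions, and 1 (1.82%) showed the reverse, against 2.32%. The 6 were the ELANE region 53 bp upstream, the CTSG region 709 bp upstream, an intronic MPO region 3.62 kb downstream, an RNASE2 region 22.71 kb downstream and RNASE3 regions 11.74 kb upstream and 13.46 kb downstream. Of these, the 2 RNASE3 regions, the MPO region and the RNASE2 region also had a peak in at least 1 EV list. The MPO region had 18 and 15 tags in the p42 lists and 13 in each EV list. The reverse case was an RNASE2 region 10.89 kb upstream, with 8 tags in p30 DMSO and 5 in p30 Tm and no peak elsewhere.

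The strongest of the 6 in p42 DMSO was the RNASE3 region 13.46 kb downstream, in an intron of ENSG00000258918. It had 21 tags in p42 DMSO (82.3 percentile), 11 in p42 Tm (55.3) and 6 in EV Tm (20.0).

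Within 201 bp centred on the summit, the C/EBP core was found in 8 of the 59 regions (13.6%) and in 6.71% of all regions. PU.1 letters were found in 14 (23.7%, against 15.4%), MYB letters in 25 (42.4%, against 40.2%), RUNX letters in 4 (6.78%, against 9.29%) and AP-1 letters in 1 (1.69%, against 12.9%), the CTSG region 5.92 kb upstream. The ATF4 composite and the TGTTGCAA composite were found in none, against 1.25% and 1.17% of all regions. The members were richer in G and C, with a median of 55.2% against 45.8%, and the part of base composition in these shares was not tested. Of the 20 regions present in p42 DMSO and not in p30 DMSO, 4 held the C/EBP core, and of the 33 present in p30 DMSO, 4 did. For PU.1 letters these counts were 4 and 10, for MYB 8 and 14, for RUNX 2 and 2 and for AP-1 1 and 0. The same split was not made over all regions, and no difference was tested.

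Counted over the windows, 51 of the 59 regions (86.4%) had a peak in p42 DMSO, where 69.3% of all regions did, 33 (55.9%) in p30 DMSO, where 56.1% did, and 38 (64.4%) in EV DMSO, where 50.4% did. In Tm there were 41 (69.5%) in p42, 31 (52.5%) in p30 and 33 (55.9%) in EV, against 56.8%, 49.4% and 52% of all regions. The p30 DMSO share was that of all regions. There were 22 (37.3%) present in all 6 lists, against 32.2% of all regions, and 15 (25.4%) in a single list, against 34.2%, of which 9 were in p42 DMSO. The members were wider than the rest (median 233 against 147 bp). Their median percentile was 58.7 in p42 DMSO and 56.1 in p42 Tm, against 51.5 and 51.7 for all regions, and between 43.2 and 48.5 in the 4 p30 and EV lists, where the median of all regions was 50.5 to 52.1.

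Between p42 and p30 in DMSO, 20 of the 53 regions with a peak in either (37.7%) were present in p42 only, where 30.8% of all regions were, and 2 (3.77%) in p30 only, where 14.5% of all regions were. The p42 list was also the longest, and with all lists cut to equal length by −log10 p 7 of 38 regions (18.4%) were in p42 only, where 20.8% of all regions were, and 2 (5.26%) in p30 only, where 20% were, so that the p42-only share no longer exceeded that of all regions. Over the 31 regions with a peak in both, the percentile was higher in p42 in 28, against 61.8% of regions over the whole lists. The median difference over all 31 was 12.5 points, against 3.16 points over the whole lists. The tag ratio of p42 over p30 had a median of 1.36 over these 31 regions and of 0.973 over all regions. It was at least 1.5 in 11 of 31 (35.5%), against 9.97% of all regions. Of these 31 ratios, 2 had an interval wholly above 1, the RNASE2 start-site region and the MPO region 3.87 kb upstream, and none had one wholly below. The intervals are not adjusted for the number of ratios, and this count was not made over all regions. It therefore does not set these members apart from other regions.

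In Tm the difference between p42 and p30 was smaller in these values, which are those of the full lists. There were 12 of 43 regions (27.9%) in p42 only, against 26.1% of all regions, and 2 (4.65%) in p30 only, against 15.1%. With lists of equal length the p42-only share was instead larger in Tm than in DMSO. It was 10 of 41 regions (24.4%, against 19.2% of all regions) in Tm and 18.4% in DMSO. Over the 29 regions in both, p42 was higher in 21, and the median difference over all 29 was 7.26 points, against 2.2 for all regions. The median tag ratio was 1.2, against 0.961, and 4 of 29 (13.8%) reached 1.5, against 9.22%. Whether the line difference itself changed with Tm was not tested.

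**Figure D3:**
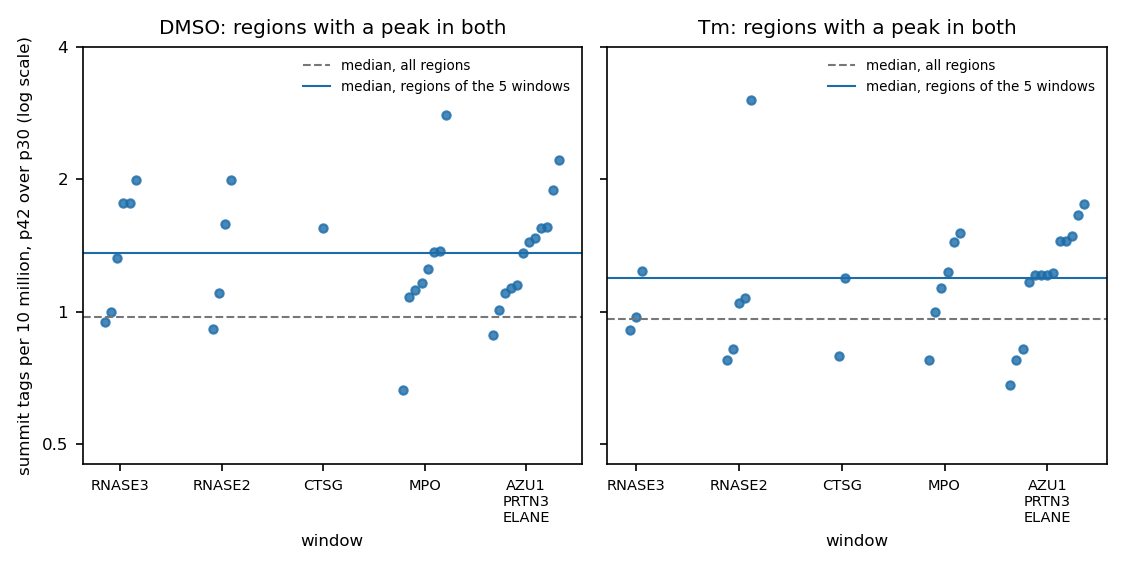
Ratio of summit tags per 10000000, p42 over p30 (vertical axis, log scale), at each region with a peak in both lists, by window, in DMSO (left) and Tm (right), with the median of these regions (blue line) and of all regions (dashed). The median in the windows is 1.36 in DMSO and 1.2 in Tm, and the highest points are the MPO region 3.87 kb upstream in DMSO (2.8) and the RNASE2 start-site region in Tm (3.02).

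In DMSO rank and presence were also counted window by window. In the RNASE3 window all 6 regions shared by p42 and p30 in DMSO ranked higher in p42 (median difference 21.7 points), and in the chromosome 19 window 11 of 12 did (19.5 points). In the MPO window 7 of 8 did, with a median difference of 5.96 points over all 8, and in the RNASE2 window 3 of 4 (8.8 points over all 4). The CTSG window had 1 shared region, higher in p42 by 10.3 points. Of the regions with a peak in either list, 6 of 11 in the RNASE2 window (54.5%), 3 of 4 in the CTSG window (75%) and 6 of 18 in the chromosome 19 window (33.3%) were in p42 only, against 30.8% of all regions. In the MPO window 3 of 12 (25%) and in the RNASE3 window 2 of 8 (25%) were. With 4 to 18 regions per window these shares are coarse, and differences between windows were not tested. The windows were not counted with lists of equal length. The RNASE2 and MPO windows each had 1 region in p30 only and the others none, against 14.5% of all regions. The chromosome 19 regions shared by both include those of CFD, the complement factor D gene, 7.26 kb downstream of the ELANE start site, where the promoter region (chr19:859275-859827) had 30 tags in p42 DMSO and 14 in each of p30 and EV DMSO, and 31, 16 and 15 in Tm.

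Against EV, the share of regions in p42 only was below that of all regions, while shared regions ranked higher in p42. These comparisons use the same p42 and p30 lists as above. In DMSO 16 of 54 regions (29.6%) were in p42 only, against 35.4% of all regions, and 3 (5.56%) in EV only, against 11.2%. Of 35 in both, 28 ranked higher in p42, and the median difference over all 35 was 13.6 points (6.0 for all regions). A tag ratio of at least 1.5 was reached by 4 (11.4%), against 5.77%. The median tag ratio was 1.07 where that of all regions was 0.887. Of these 35 ratios, 2 had an interval wholly above 1 and none wholly below, without adjustment for their number. In Tm 10 of 43 (23.3%) were in p42 only, against 24.2%, and 2 (4.65%) in EV only, against 17.2%. Of 31 in both, 25 ranked higher in p42, and the median difference over all 31 was 8.94 points (1.48 for all regions). The median tag ratio was 1.32 against 0.988, and 7 (22.6%) reached 1.5, against 10.4%. Of these 31 ratios, 1 had an interval wholly above 1 and none wholly below.

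In DMSO p30 had fewer of these regions than EV, 33 (55.9%) against 38 (64.4%), where the shares of all regions were 56.1% and 50.4%. In Tm p30 had 31 (52.5%) against 33 (55.9%) in EV, a gap much like that of all regions (49.4% and 52%). In DMSO 4 of 42 (9.52%) were in p30 only, against 22.4% of all regions, and 9 (21.4%) in EV only, against 13.7%. The 29 shared regions differed by a median of -0.82 points (1.73 for all regions), with 10 higher in p30. In Tm 7 of 40 (17.5%) were in p30 only, against 15.3%, and 9 (22.5%) in EV only, against 19.5%, and of 24 shared regions 12 were higher and 12 lower in p30. Among the 5 start-site regions with a peak in both lists in DMSO, that of CTSG alone had more scaled tags in p30 than in EV (7.54 against 5.84), with 20 tags in p30 DMSO against 13 in EV DMSO and 22 against 15 in Tm. The CTSG ratios were 1.29 and 1.6, and both intervals contained 1 (0.611 to 2.82 and 0.792 to 3.31). In Tm the MPO start-site region also had more scaled tags in p30 than in EV (12.1 against 10.7). Its ratio was 1.13 (interval 0.641 to 1.99).

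Tm was compared with DMSO within each line. In p42 cells 1 of 52 (1.92%) was present in Tm only, against 11.6% of all regions, and 11 (21.2%) in DMSO only, against 27.5%. With lists of equal length these were 4 and 4 of 40 (10% each), against 14.6% and 19.1%. In p30 cells 5 of 38 (13.2%) were in Tm only, which was the share of all regions (13.2%), and 7 (18.4%) in DMSO only, against 23.6%. In EV cells 6 of 44 (13.6%) were in Tm only, against 18.8%, and 11 (25%) in DMSO only, against 16.3%. The median tag ratio of Tm over DMSO in shared regions was 0.976 for p42, 1.02 for p30 and 0.836 for EV, against 1.06, 1.07 and 0.941 for all regions. None of the 40, 26 and 27 single ratios had an interval that excluded 1. In the EV line, 5 of the 6 regions that appeared were in the RNASE3 window, with 6 or 7 tags each.

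**Figure D4:**
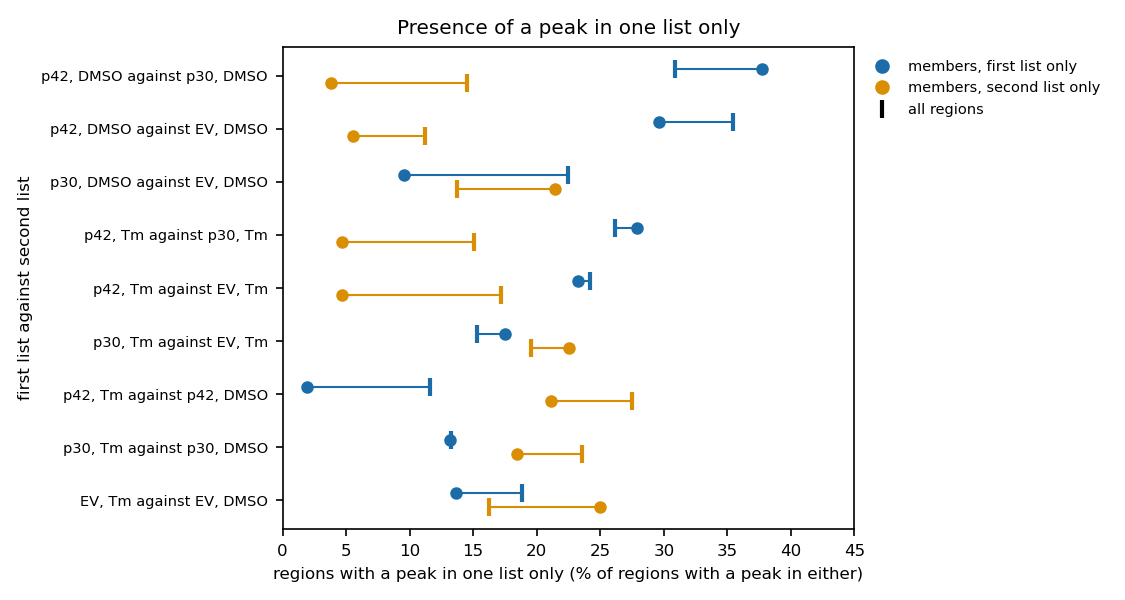
Share of regions with a peak in 1 list only, as a percent of the regions with a peak in either list (horizontal axis), for the 9 comparisons (vertical axis), with circles for the members (blue for the first list named, orange for the second) and ticks for all regions. The share in the second list only lies left of its tick for the comparisons of p42 with p30 and EV (3.77 to 5.56% against 11.2 to 17.2%).

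Other genes of primary granule proteins had a promoter peak in every list. The promoter regions with the highest rank of BPI (a lipopolysaccharide-binding protein), LYZ (lysozyme), PRSS57 (a serine protease), SRGN (the proteoglycan core of granules), CTSC (the protease that activates the granule serine proteases) and CD63 (a tetraspanin of granule membranes) had 21 to 46 tags. The p42 over p30 ratio in DMSO was 0.906 for BPI, 0.983 for LYZ, 1.25 for PRSS57, 0.971 for SRGN, 0.843 for CTSC and 0.654 for CD63. In Tm these were 0.882, 1.12, 1.18, 1.06, 0.866 and 0.76. Measured in the same way, at the promoter region with the highest rank, the 7 members had ratios of 1.01 (ELANE) to 2.21 (AZU1) in DMSO. In Tm the 6 members with a peak in both lists had ratios of 0.68 (ELANE) to 3.02 (RNASE2). The ranges of the members and of these other genes thus overlapped in both treatments.

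The coding genes whose promoter peak had the most similar percentiles over the 6 lists, among 15157 genes with a promoter peak in all of them, were HTRA3, KIAA1549 and ENSG00000288681 for MPO (mean absolute difference 1.18 to 1.52 points). For CTSG they were KANK2, WWP2 and PPP1R13L (2.8 to 3.36), and for RNASE2 LHFPL5, SEPTIN4 and MMP24 (2.99 to 3.64). For ELANE, at its region 1.86 kb upstream, they were NALF1, NOVA1 and TOM1L1 (5.23 to 7.55). AZU1, PRTN3 and RNASE3 had no start-site region with a peak in all 6 lists and were not compared.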

How the data were processed

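ATAC-seq libraries were made from 2 replicates of each of 6 groups (12 libraries). Per the labels, reads were trimmed with Trim Galore 0.6.6 and aligned to hg38 with Bowtie2 2.4.4, and the submitters' processing notes also name Picard and MACS2. The study's methods cover ChIP-seq and ATAC-seq under a single heading, worded for ChIP-seq reads, with most Bowtie2 settings at default and duplicates left out. A control for the ATAC-seq lists and a shift for transposase cuts are not given in the sources used here. The authors deposited 1 peak list per group, called on pooled replicates. Each peak carries a fold enrichment over local background (a ratio), a −log10 p and a −log10 q, deposited without normalization between lists. The deposited summit is a distance from the start of the peak.

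Fold and −log10 p were solved for the whole number of tags at the summit and the background (MACS2 adds 1 to both in the fold, and p is Poisson), which gave whole tags for 100% of peaks within 0.001 of the −log10 p. Depth was estimated from the lowest background, a genome of 2700000000 bp and the shortest peak width. Peaks were merged into common regions, and none reached beyond the end of a chromosome of the hg38 reference. Intervals are exact at the 95% level, cover counting error only and are not adjusted for the number of ratios. The calculation was tested on simulated data. Python 3.11.15, scipy 1.17.1 and pandas 2.3.3 were used, with Biopython 1.88 for pairwise alignment of promoters.

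The genes, lists and windows were chosen with earlier results of these data known. Regions are named if they lie within 1000 bp of an annotated start site of a member, if they have the highest percentile or the widest or narrowest p42 minus p30 difference of a window, or if both p42 lists and neither p30 list have a peak there, or the reverse. A few others, such as the CFD promoter, were chosen after their values were seen. Some marker genes and a sequence are not reported here. Alternatives were a −log10 q of at least 10, lists of equal length, a depth-scaled threshold, coverage of at least 0.5 of a region, summits inside the window, flanks of 10 and 50 kb, other rankings and another scaling.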

Additional observations from a re-analysis of the deposited data

Results flagged for a closer look

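Tm moved 5 values in opposite directions in p42 and p30 cells. The difference was not tested, since each line has 1 list per treatment. Over all regions 27.5% were in DMSO only and 11.6% in Tm only in p42 cells, and 23.6% and 13.2% in p30 cells. A net loss in p42 cells was thus also seen over all regions. With lists of equal length 4 of the members were gained and 4 lost in p42 cells. In the RNASE2 window 4 fewer regions had a peak after Tm in p42 cells and 1 more in p30 cells, a difference of -5. In the CTSG window it was 1 fewer and 1 more, a difference of -2, and in the window of AZU1, PRTN3 and ELANE 3 fewer and 2 more, a difference of -5. At the AZU1 start site the percentile moved by -3.74 points in p42 cells and by 33.6 in p30 cells, a difference of -37.4 points that rests on 6 and 9 tags in the p30 lists. At the CTSG start site it moved by -3.57 points in p42 and 2.56 in p30 cells, a difference of -6.13 points.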

How the results depend on the processing

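No paired analysis was possible because each deposited list pools both replicates, and for the same reason no replicate could be left out. Of 106 values under other settings, 71 kept to within 1.5 times the count or inside the interval of the value. The interval of a median was taken over regions of the same lists, which are not replicates. By this rule a count could not reverse direction, and no median difference or tag ratio did. All 59 summits lay inside the windows, so that this setting repeated the main values. The median percentile difference of p42 minus p30 stayed positive, at 5.11 to 17.6 points in DMSO and 2.94 to 10.9 in Tm. Counts moved more, and the p42-only share in DMSO was not above that of all regions with lists of equal length and was close to it with 50 kb flanks. With a −log10 q of at least 10, 22 regions were left. In DMSO 8 of 20 (40%, against 23.6% of all regions) were in p42 and not p30 and 1 (5%, against 10.4%) the reverse. In Tm 7 of 18 (38.9%, against 20.7%) were in p42 and not p30. Tm then removed 4 regions with p42 (20%, against 18.6% of all regions), 2 with p30 (15.4%, against 16.1%) and 2 with EV (14.3%, against 9.83%). It added 1 with p30 (7.69%, against 9.13%) and 1 with EV (7.14%, against 15.1%). With lists of equal length 7 of 38 regions (18.4%, against 20.8%) were in p42 and not p30 in DMSO. In Tm 10 of 41 (24.4%, against 19.2%) were in p42 and not p30, and 5 (12.2%, against 20.4%) the reverse. Tm added 4 and removed 4 in p42 cells (10% each, against 14.6% and 19.1%). There was thus no net loss of regions with Tm in p42 cells in this setting. A net loss remained with a −log10 q of at least 10, with 4 lost (20%, against 18.6%) and 1 gained (5%, against 7.57%). It also remained with a depth-scaled threshold, with 10 lost (20%, against 25.8%) and 0 gained. A depth-scaled threshold left 0 regions gained with Tm in p42 cells, against 12.25% of all regions. Where 0.5 of a region had to be covered, 4 regions in DMSO (7.84%, against 20%) and 5 in Tm (15.2%, against 23.8%) were in p30 and not p42. Tm then removed 21 (42.9%, against 38.9% of all regions) and added 2 (4.08%, against 14.7%) in p42 cells. It added 3 (12.5%, against 18.2%) in p30 cells. Flanks of 10 kb gave 37 regions. In DMSO 12 of 33 (36.4%, against 30.8%) were in p42 and not p30 and 1 (3.03%, against 14.5%) the reverse. In Tm these were 7 (26.9%, against 26.1%) and 0 (against 15.1%). Losses with Tm were 6 for p42 (18.75%, against 27.5%) and 7 for EV (24.1%, against 16.3%). Gains were 0 for p42 (against 11.6%), 3 for p30 (12.5%, against 13.2%) and 3 for EV (10.3%, against 18.8%). Flanks of 50 kb gave 102 regions, with 31 of 95 (32.6%) in DMSO and 19 of 77 (24.7%) in Tm in p42 and not p30, against 30.8% and 26.1% of all regions. Losses with Tm were 20 for p42 (21.3%, against 27.5%) and 13 for p30 (18.3%, against 23.6%). The gain for p42 was 2 (2.13%, against 11.6%). Fewer or more regions follow from the construction of these settings, and other causes were not tested. Of the 227 summits in these regions, 87.2% held fewer than 30 tags, which limits the precision of single ratios.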
